A study of Homo sapiens with 9 samples.

Results

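CD44 is a transmembrane receptor for hyaluronan, and HAS1, HAS2 and HAS3 are the hyaluronan synthases that make this polymer. All probe sets whose RefSeq identifier, read without its version, maps to 1 of these 4 genes were taken, which gave 4 of the 927 named genes and 5 of the 1259 probe sets of the array: 1 each for CD44, HAS1 and HAS2, and 2 for HAS3. Another 216 probe sets received no symbol, and some of them may belong to these genes. The 5 probe sets were measured in 2 human lines derived from colorectal carcinoma, on 9 single-colour arrays in 3 groups of 3. T84 cells were given 100 U/ml interferon gamma, a cytokine of activated T cells and natural killer cells, for 24 hours. Passage and confluence of these cells are not stated. Untreated T84 cells were at passage 68 and about 90% confluent, and untreated Caco-2 cells at passage 37 and 90% confluent. Each line is a single cultured tumour line and not a sample of intestinal epithelium. The series set treated T84 against untreated T84 and against Caco-2 in order to find glycosylation genes linked to a sialylated form of the CD44 variant v6 that interferon gamma raises in T84. Caco-2 lacks that epitope.

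Hyaluronan is a long unsulfated polysaccharide of alternating glucuronic acid and N-acetylglucosamine. It is the exception among glycosaminoglycans in being made at the plasma membrane, where the synthases use cytosolic UDP-glucuronic acid and UDP-N-acetylglucosamine and push the growing chain out of the cell. CD44 binds the chain at the cell surface and has many splice forms, some of which carry sulfated side chains or bind growth factors, and in the intestine its variant forms are known from crypts, tumours and inflamed mucosa.

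CD44 lies on chromosome 11 (GRCh38.p14, positions 35139171 to 35232402), HAS3 on chromosome 16 (69083484 to 69118719) and HAS1 on chromosome 19 (51713112 to 51723991). These are whole-gene coordinates of the RefSeq table and not positions of probe sets, for which no source used here names a build. The table lists 44 transcripts for CD44 and 8 for HAS3. The CD44 probe set, NM_001001392.1_psr1_at, carries the identifier of a single transcript and was not resolved to an exon, so splice variants such as v6 were not analysed here. Of the HAS3 probe sets, NM_005329.2_psr1_at has the plain suffix and is called unshared below. The other, NM_138612.1_psr1_s_at, carries the suffix that Affymetrix uses for probes common to several transcripts, which need not belong to the same gene, and is called shared. Probes differ in brightness, so a higher level of 1 probe set than of another is not read as more RNA. The difference between the HAS3 probe sets is taken within each array and compared between groups alone. The file gives no detection call, so it is unknown whether a dim probe set lay above background.

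The promoter windows of CD44 and HAS3, whose signals (for HAS3 that of the unshared probe set) were higher in both T84 groups than in Caco-2, and of HAS1, which passed in no comparison, are shown so that the measured levels can be read beside the DNA at a start site of each gene. Each runs 5′ to 3′ on the gene's strand from 250 bases before to 50 bases after a start annotated by RefSeq (GRCh38.p14), and capitals mark the GC box letters GGGCGG on either strand.
CD44, chr11:35138921-35139220, plus strand: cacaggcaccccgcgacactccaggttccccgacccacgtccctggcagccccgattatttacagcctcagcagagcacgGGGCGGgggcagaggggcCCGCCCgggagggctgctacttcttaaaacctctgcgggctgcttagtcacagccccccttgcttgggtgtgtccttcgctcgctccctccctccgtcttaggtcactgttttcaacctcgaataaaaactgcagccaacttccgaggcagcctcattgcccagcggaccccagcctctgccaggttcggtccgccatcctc
HAS3, chr16:69107290-69107589, plus strand: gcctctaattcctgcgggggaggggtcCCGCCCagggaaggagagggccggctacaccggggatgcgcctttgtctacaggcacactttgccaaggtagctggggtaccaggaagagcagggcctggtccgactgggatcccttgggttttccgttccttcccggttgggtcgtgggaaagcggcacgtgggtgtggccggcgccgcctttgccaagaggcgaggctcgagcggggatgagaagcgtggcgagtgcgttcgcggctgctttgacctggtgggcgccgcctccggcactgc
HAS1, chr19:51723942-51724241, minus strand: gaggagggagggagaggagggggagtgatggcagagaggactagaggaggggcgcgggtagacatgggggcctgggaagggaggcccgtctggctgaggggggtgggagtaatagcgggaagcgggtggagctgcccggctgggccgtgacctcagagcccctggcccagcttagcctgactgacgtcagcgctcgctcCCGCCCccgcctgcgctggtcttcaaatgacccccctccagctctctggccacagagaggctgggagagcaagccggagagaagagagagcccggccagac
The GC box occurred 2 times in the CD44 window, 1 time in that of HAS3 and 1 time in that of HAS1, and 45% of all 35116 promoter windows of this length hold it at least once. None of the 3 windows held TTCNNNGAA (the letters of the interferon gamma activated site), the core of the interferon-stimulated response element (GAAA, any 2 bases and again GAAA) or TATAAA on either strand. Those letters occur in 7.66%, 3.57% and 11.5% of all windows. The 3 windows were 63.3%, 67.0% and 68.3% G or C, against a median of 58.7% over all windows. The HAS3 window lies inside the annotated gene, which has other starts. No window of HAS2 was examined, so these counts do not cover it.

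The arrays had medians between 6.70 and 6.80 log2 units. Treated T84 cells showed the response to interferon gamma that the label implies: CXCL9 stood at 11.92 ± 0.49 in treated and 5.79 ± 0.12 log2 units in untreated T84 (SD, n = 3), and CXCL10, CXCL11, ICAM1 and CD74 also rose (8.97-fold for ICAM1 and more for the others, limma adjusted p at or below 5.4e-05). Of 14 listed intestinal epithelial markers only LGALS4 and MUC13 were measured, and Caco-2 held less of both. LGALS4 averaged 12.47 log2 units in treated and 13.01 in untreated T84, with 6.91 in Caco-2, and MUC13 averaged 12.38, 11.98 and 9.92 in that order. Summed signals of 6 fibroblast and endothelial markers were between 7.68 and 7.79 log2 units in treated T84, 7.73 and 7.77 in untreated T84, against 8.36 and 8.52 in Caco-2. LUM, PDGFRA, PDGFRB and PECAM1 of that list were called lower in both T84 groups than in Caco-2, with DCN and SELE near 3.5 log2 units throughout. Summed signals of 5 leukocyte markers lay between 8.13 and 8.17 in treated T84, 8.10 and 8.21 in untreated T84, against 7.95 and 8.13 in Caco-2, with CD22 alone called (higher in both T84 groups than in Caco-2). The part of these markers in the differences between the lines was not tested. The arrays are of whole cultures, in which fewer cells of a type and less RNA per cell cannot be told apart.

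Caco-2 replicate 1 stood apart from the other Caco-2 arrays. It lay more than 0.5 log2 units from their mean at 121 of 1259 probe sets, against 0 to 65 for the other 8 arrays measured in the same way. Its deviation was shared with untreated T84 replicate 3 (r = 0.76 between their deviations from the group means, computed over probe sets, which are no independent replicates) and with treated T84 replicate 3 (r = 0.48), and the replicates numbered 3 of the T84 groups had r = 0.56. HAS2 and the shared HAS3 probe set are among those that moved with it, so their values are given with and without these arrays.

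CD44 was the member that parted the lines most widely. Its log2 signal was 10.09, 9.90 and 9.99 in the treated T84 arrays, 10.41, 10.21 and 10.21 in the untreated T84 arrays, and 5.78, 5.65 and 5.38 in the Caco-2 arrays, by replicate number. All T84 arrays lay far above all Caco-2 arrays. Treated T84 exceeded Caco-2 by 4.39 ± 0.11 log2 units (SE), or 21-fold (95% confidence interval 17.6 to 24.9; adjusted p = 8.64e-09 in the moderated test of limma over 1259 probe sets, n = 3 per group). Untreated T84 exceeded Caco-2 by 4.68 ± 0.11, or 25.6-fold (21.5 to 30.4; limma adjusted p = 6.43e-09). By size, these differences ranked 15th and 10th of 1259. Against Caco-2, 45.6% of all probe sets passed the test in treated T84 and 43.7% in untreated T84, 19.4% and 19.5% of all being higher. Both comparisons use the same Caco-2 arrays.

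Interferon gamma was not followed by a higher CD44 signal. The treated T84 arrays, at 9.90 to 10.09, all lay below the untreated T84 arrays, at 10.21 to 10.41. The difference was -0.29 ± 0.11 log2 units (95% confidence interval -0.54 to -0.04) and did not pass the test (limma adjusted p = 0.181, unadjusted p = 0.0296, n = 3 per group). In this comparison 10.2% of all probe sets passed, 4.37% higher and 5.8% lower, and groups did not overlap at 27.5% of probe sets. With arrays weighted by their quality the CD44 difference was -0.34 and passed (adjusted p = 0.0207). When arrays were centred on ribosomal protein genes it was -0.14 and did not pass (limma adjusted p = 0.287). That centring moved the median of all probe sets from -0.01 to 0.14. Relative to the median, CD44 stood at -0.27 under both scalings. The interval, which is that of the deposited scaling, holds no rise.

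**Figure D1:**
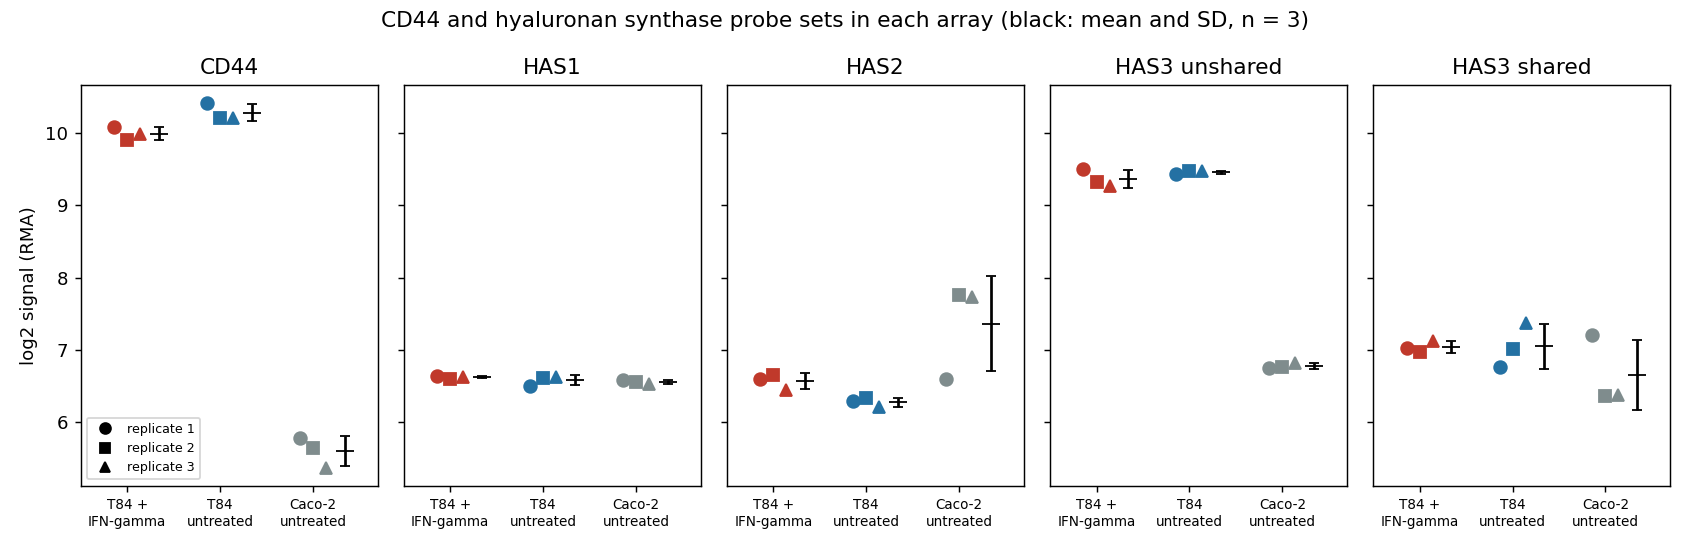
Log2 signal (vertical axis) of the 5 probe sets in each array, by group, with the replicate number as the symbol and the mean and SD (n = 3) in black. CD44 and the unshared HAS3 probe set are high in both T84 groups and low in Caco-2, HAS1 is level throughout, and Caco-2 replicate 1 departs from the other Caco-2 arrays in HAS2 (6.61 against 7.76 and 7.73) and in the shared HAS3 probe set (7.21 against 6.37 and 6.38).

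HAS3, the synthase known for high activity and comparatively short chains in biochemical work, gave unlike results in its probe sets. The unshared probe set read 9.50, 9.32 and 9.26 log2 units in treated T84, 9.43, 9.47 and 9.47 in untreated T84, against 6.75, 6.76 and 6.82 in Caco-2. The T84 groups overlapped each other and both stood clear of Caco-2, where the spread was small (SD 0.04). Treated T84 exceeded Caco-2 by 2.58 ± 0.06 log2 units (6-fold, 95% confidence interval 5.41 to 6.65; limma adjusted p = 8.64e-09, n = 3 per group). Untreated T84 exceeded Caco-2 by 2.68 ± 0.06 (6.39-fold, 5.77 to 7.08; limma adjusted p = 7.36e-09). These differences ranked 51st and 39th of 1259 by size. Treated and untreated T84 differed by -0.09 ± 0.06 (95% confidence interval -0.24 to 0.06; limma adjusted p = 0.556).

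The shared HAS3 probe set read 7.03, 6.97 and 7.13 in treated T84, 6.77, 7.01 and 7.38 in untreated T84, against 7.21, 6.37 and 6.38 in Caco-2. Here Caco-2 replicate 1 lay within the T84 range while the other Caco-2 arrays lay below every T84 array. Treated T84 differed from Caco-2 by 0.39 ± 0.24 log2 units (95% confidence interval -0.15 to 0.93; limma adjusted p = 0.218) and untreated T84 by 0.40 ± 0.24 (-0.15 to 0.94; limma adjusted p = 0.228). Without Caco-2 replicate 1 the differences were 0.67 and 0.67 and passed (limma adjusted p = 0.00755 and 0.00806). With the 3 arrays that deviated together left out, they were 0.63 and 0.51 (limma adjusted p = 0.00173 and 0.00436), a check chosen after seeing the data. Treated and untreated T84 differed by 0.00 ± 0.24 log2 units, with an interval from -0.55 to 0.54 (limma adjusted p = 0.995). Untreated T84 replicate 3 was the highest of the T84 arrays and untreated T84 replicate 1 the lowest.

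The size of the T84 to Caco-2 difference in HAS3 therefore depended on the probe set. Taken within each array, the unshared minus the shared value was 2.47, 2.35 and 2.13 log2 units in treated T84, 2.66, 2.46 and 2.09 in untreated T84, against -0.46, 0.39 and 0.44 in Caco-2. No Caco-2 array came near a T84 array. The difference of these differences was 2.19 log2 units for treated T84 against Caco-2 and 2.28 for untreated T84 against Caco-2, each with p = 0.1 in an exact two-sided permutation test over 3 and 3 arrays, the smallest p that this design allows. Without Caco-2 replicate 1 the values were 1.90 and 1.99. Between treated and untreated T84 it was -0.09 (exact permutation p = 0.8), and its sign turned without treated T84 replicate 3 (0.01) or untreated T84 replicate 1 (0.04).

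**Figure D2:**
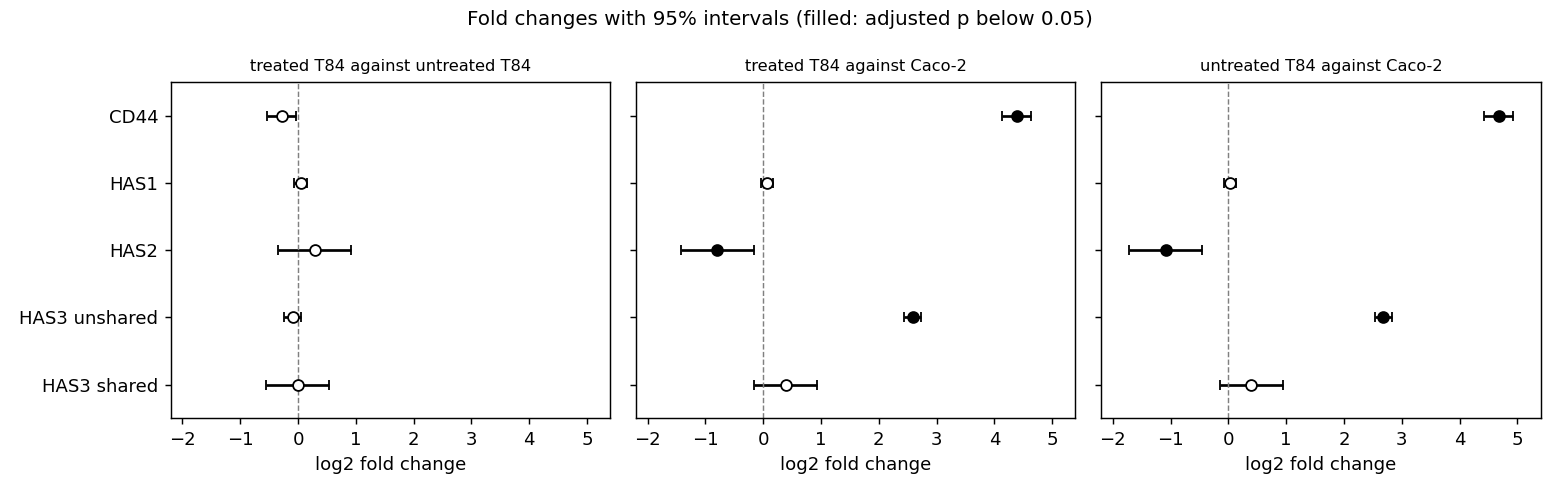
Log2 fold change (horizontal axis) of each probe set in the 3 comparisons, with 95% intervals from the fit of all 9 arrays; filled points passed an adjusted p of 0.05. No probe set passed between treated and untreated T84, whereas CD44 and the unshared HAS3 probe set exceeded Caco-2 by 4.39 and 2.58 log2 units in treated T84, and HAS2 lay below Caco-2.

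HAS2, on chromosome 8 (GRCh38.p14, 121612116 to 121641440), is the synthase required for heart development in mice and is often induced by growth factors and cytokines. It ran the other way. Its log2 signal was 6.61, 6.66 and 6.45 in treated T84, 6.30, 6.33 and 6.21 in untreated T84, against 6.61, 7.76 and 7.73 in Caco-2. Caco-2 replicates 2 and 3 lay above every T84 array, and Caco-2 replicate 1 lay inside the range of treated T84. The SD within Caco-2 was 0.66, the 38th largest of 1259 in that group, where the median was 0.10. Untreated T84 was below Caco-2, with a log2 fold change of -1.09 ± 0.27 (2.12-fold, 95% confidence interval 1.37 to 3.28; limma adjusted p = 0.0114, n = 3 per group). Treated T84 was also below it, at -0.80 ± 0.27 (1.74-fold, 1.12 to 2.69; limma adjusted p = 0.0433). Of all probe sets, 26.2% were called lower for treated T84 against Caco-2 and 24.2% for untreated T84.

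The call for treated T84 against Caco-2 was fragile. Without Caco-2 replicate 1 the HAS2 difference was -1.18 (limma adjusted p = 3.86e-06). With any 1 of the other 8 arrays left out the call was lost (limma adjusted p from 0.0636 to 0.143, log2 fold change from -0.84 to -0.60). For untreated T84 the call held without each array in turn, from -1.47 without Caco-2 replicate 1 to -0.89, with adjusted p values up to 0.0454. With the 3 arrays that deviated together left out, the differences were -1.11 for treated and -1.43 for untreated T84 (limma adjusted p = 1.69e-05 and 7.65e-06).

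Within T84, HAS2 was 0.29 ± 0.27 log2 units higher after interferon gamma (95% confidence interval -0.34 to 0.92; limma adjusted p = 0.698). The treated arrays, at 6.45 to 6.66, all lay above the untreated ones, at 6.21 to 6.33, as happened in 1 direction or the other at 27.5% of probe sets. The error of this estimate was shared with Caco-2, whose HAS2 spread was the widest of the groups. Fitted on the 6 T84 arrays alone, the same 0.29 passed the test (limma adjusted p = 0.0399), as it did without Caco-2 replicate 1 (0.0193) and, at 0.32, with the 3 arrays left out together (0.019). Whether the small difference is called thus depended on which arrays set the error.

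**Figure D3:**
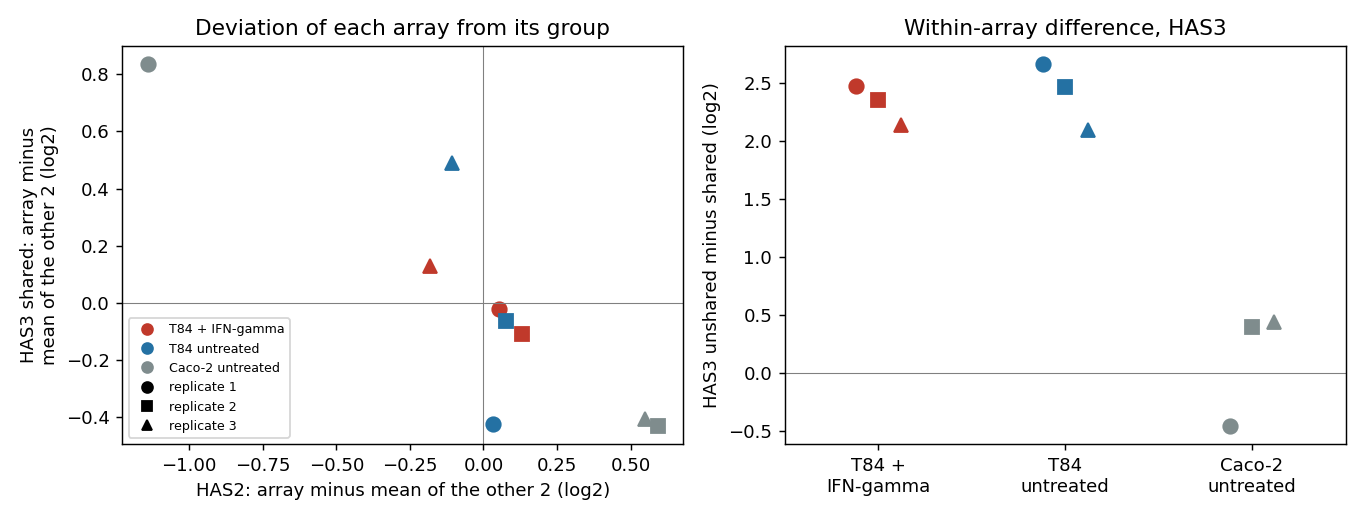
Left, deviation of each array from the mean of the other 2 arrays of its group in HAS2 (horizontal axis) and in the shared HAS3 probe set (vertical axis), both in log2 units; Caco-2 replicate 1 lies at -1.14 and 0.84. Right, the within-array difference between the HAS3 probe sets by group, between 2.09 and 2.66 in all T84 arrays and between -0.46 and 0.44 in Caco-2.

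HAS1, the least studied of the synthases and usually the one with the lowest activity, was level across the groups. It read 6.64, 6.61 and 6.63 in treated T84, 6.51, 6.61 and 6.63 in untreated T84, against 6.59, 6.55 and 6.52 in Caco-2. The log2 fold changes were 0.04 ± 0.05 for treated against untreated T84, 0.07 ± 0.05 for treated T84 against Caco-2 and 0.03 ± 0.05 for untreated T84 against Caco-2 (limma adjusted p = 0.77, 0.267 and 0.678). The 95% confidence intervals ran from -0.07 to 0.15, from -0.04 to 0.18 and from -0.08 to 0.14. When arrays were centred on ribosomal protein genes, the median of all probe sets moved to 0.14, 0.46 and 0.31 in these comparisons, and HAS1 stood at 0.05, 0.05 and 0.01 relative to that median.

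The levels therefore ordered differently by gene. For CD44 untreated T84 was highest, treated T84 next and Caco-2 lowest, and the T84 groups did not pass the test against each other. The unshared HAS3 probe set had the same order, with the T84 groups overlapping. For HAS2 Caco-2 was highest, then treated T84, then untreated T84. HAS1 and the shared HAS3 probe set passed in no comparison of the fit of all arrays. Groups did not overlap at 3 of the 5 probe sets both for treated T84 against Caco-2 (CD44, HAS1 and the unshared HAS3) and for untreated T84 against Caco-2 (CD44, HAS2 and the unshared HAS3), against 53.5% and 49.6% of all probe sets.

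The patterns over the 9 arrays that were most like those of the members were found by Pearson correlation among 927 named genes, each by its brightest probe set. The arrays fall into the 2 lines, so for CD44 and HAS3 such a value mainly describes which line is higher, and no test was made. CD44 was most like the galectin gene LGALS4 (r = 0.999), the sialyltransferase gene ST6GALNAC1 (0.998), HAS3 itself (0.997), the growth factor homologue gene FGF13 (0.996) and the interleukin 4 receptor gene IL4R (0.996). LGALS4, ST6GALNAC1, CD44 and FGF13 were also the 4 most like the unshared HAS3 probe set (r from 0.995 to 0.997), followed by the glypican gene GPC4 (0.995). ST6GALNAC1 stood at 9.11 in treated T84, 9.54 in untreated T84 against 5.18 in Caco-2, FGF13 at 9.93, 9.96 and 7.18, and GPC4 at 8.66, 8.53 and 4.78 log2 units. IL4R stood at 9.30, 9.39 and 8.08. HAS2 was most like GDI2 (r = 0.979), a regulator of Rab proteins, at 12.07, 12.01 and 12.25 log2 units in these groups. It was followed by the sulfotransferase genes CHST9 (0.946) and HS2ST1 (0.944), the mucin gene MUC15 (0.936) and the activin receptor gene ACVR2A (0.935). HS2ST1 stood at 5.37 in treated T84, 5.50 in untreated T84 against 7.05 in Caco-2. All 5 of these genes were lowest in replicate 1 among the Caco-2 arrays, as HAS2 was, with HS2ST1 at 5.95 there and 7.72 and 7.47 in the others. Their likeness to HAS2 over 9 arrays thus covers that deviating array as well as the line. With Caco-2 replicate 1 left out, r over 8 arrays was slightly higher for each of the 5, between 0.936 and 0.979. The 5 had been chosen over all 9 arrays, and the other genes were not ranked again over the 8. Whether their place depended on that array was therefore not tested.

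Genes around the members were counted in 7 lists with 108 genes, of which 53 were measured. Between treated and untreated T84, 3 of them rose, 4 fell and 46 did not pass. That is 5.66% and 7.55% of the 53, against 4.37% and 5.8% of all probe sets, and the median log2 fold change was -0.02 against -0.01. In treated T84 against Caco-2 the counts were 10 higher and 11 lower (18.9% and 20.8%, against 19.4% and 26.2%), with medians of 0.03 and 0.02. In untreated T84 against Caco-2 they were 11 and 11 (20.8% and 20.8%, against 19.5% and 24.2%), with medians of 0.00 and 0.02. These shares lie near those of the whole array.

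Among 6 measured hyaluronan receptors and binding proteins, CD44 was called higher and LAYN lower in both T84 groups than in Caco-2, and none was called between the T84 groups. LAYN encodes layilin, a lectin-type hyaluronan receptor. It stood at 6.59 ± 0.09 in treated T84, 6.43 ± 0.07 in untreated T84 against 8.22 ± 0.27 in Caco-2 (SD, n = 3), which gave log2 fold changes of -1.63 ± 0.12 for treated and -1.79 ± 0.12 for untreated T84 against Caco-2 (limma adjusted p = 8.18e-06 and 5.52e-06). The matrix proteoglycans VCAN (versican), ACAN (aggrecan), NCAN (neurocan) and BCAN (brevican) lay between -0.12 and 0.12 in all comparisons.

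Of 6 hyaluronan breakdown genes, none was called between treated and untreated T84, and 1 was higher and 1 lower in each T84 group than in Caco-2. Of all probe sets, 10.2% were called between treated and untreated T84. The shares higher and lower than in Caco-2 were 19.4% and 26.2% in treated and 19.5% and 24.2% in untreated T84. HYAL1, a lysosomal hyaluronidase, was lower, with log2 fold changes of -1.50 ± 0.13 in treated T84 and -1.37 ± 0.13 in untreated T84 (limma adjusted p = 2.1e-05 and 4.15e-05). GUSB, the lysosomal glucuronidase, was higher in T84, by 0.45 ± 0.10 and 0.68 ± 0.10 (limma adjusted p = 0.00453 and 0.000464). HYAL2, HYAL3, HYAL4 and HEXA passed in no comparison.

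Of 10 genes that supply the UDP-sugars, HK1 rose and PGM1 fell after interferon gamma, beside 4.37% and 5.8% of all probe sets. Counts higher and lower than in Caco-2 were 2 and 2 in treated T84, beside 19.4% and 26.2% of all probe sets. In untreated T84 they were 1 and 3, beside 19.5% and 24.2%. HK1, a hexokinase, stood at 9.94 ± 0.06 in treated and 8.83 ± 0.03 in untreated T84 (2.17-fold, limma adjusted p = 0.000198, n = 3 per group). PGM1, a phosphoglucomutase, stood at 9.54 ± 0.02 and 10.17 ± 0.02 (1.55-fold lower, limma adjusted p = 0.0016). UGP2, which makes UDP-glucose, and UGDH, which oxidises it to UDP-glucuronic acid, had log2 fold changes of -0.17 ± 0.17 and 0.04 ± 0.20. Neither passed in any comparison. GFPT1, the entry enzyme of hexosamine synthesis, was higher than in Caco-2 by 0.96 ± 0.10 in treated and 0.93 ± 0.10 in untreated T84 (limma adjusted p = 7.57e-05 and 0.000107). GFPT2 of the same list went the other way, at -0.42 ± 0.08 in each T84 group against Caco-2 (limma adjusted p = 0.00211 and 0.00242). Both GFPT2 calls ended when arrays were centred on ribosomal protein genes (limma adjusted p = 0.803 and 0.173). That centring moved every probe set, and the median of all to 0.46 in treated and 0.31 in untreated T84 against Caco-2. PGM1 stood at -0.95 ± 0.08 for treated T84 against Caco-2, a called decrease. For untreated T84 it was also called lower, at -0.32 ± 0.08 (limma adjusted p = 0.0115). That call ended when arrays were centred on ribosomal protein genes (-0.03, limma adjusted p = 0.731), where the median of all probe sets was 0.31. HK1 was at 0.09 ± 0.10 in treated T84 against Caco-2 (not past the test) and at -1.03 ± 0.10 in untreated T84 against Caco-2 (limma adjusted p = 4.52e-05).

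Among 10 ligands, partners and proteases of CD44, LGALS9 rose and ERBB3 fell after interferon gamma, beside 4.37% and 5.8% of all probe sets. ERBB3, a receptor of the epidermal growth factor receptor family, stood at 10.89 ± 0.06 in treated and 11.72 ± 0.07 in untreated T84 (1.77-fold lower, limma adjusted p = 0.00112, n = 3 per group). Its other probe set had a log2 fold change of -0.13 ± 0.07 and did not pass. Against Caco-2, ERBB3 was called higher in untreated T84 (1.01 ± 0.10, limma adjusted p = 5.05e-05) but not in treated T84 (0.18 ± 0.10, 0.167). The other ERBB3 probe set was called higher in both, at 0.34 ± 0.07 in treated and 0.465 ± 0.07 in untreated T84 (limma adjusted p = 0.0042 and 0.000734). LGALS9, a galectin that can bind CD44, rose by 0.44 ± 0.06 log2 units, and exceeded Caco-2 by 2.48 ± 0.06 in treated and 2.05 ± 0.06 in untreated T84 (limma adjusted p = 9.66e-09 and 3.92e-08). MET, the receptor of hepatocyte growth factor and a partner of CD44 v6, was higher than in Caco-2 by 1.35 ± 0.22 and 1.18 ± 0.22 (limma adjusted p = 0.00103 and 0.00241), and stood at 0.17 ± 0.22 between treated and untreated T84. LGALS3 exceeded Caco-2 by 0.51 ± 0.05 and 0.61 ± 0.05. In all, 3 of the 10 were higher in treated and 5 in untreated T84 than in Caco-2, beside 19.4% and 19.5% of all probe sets, and none was lower. SRGN, a proteoglycan core protein, was the fifth of the untreated T84 calls (0.15 ± 0.05, limma adjusted p = 0.0456), and its call was lost with any 1 array other than treated T84 replicate 3 left out.

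**Figure D4:**
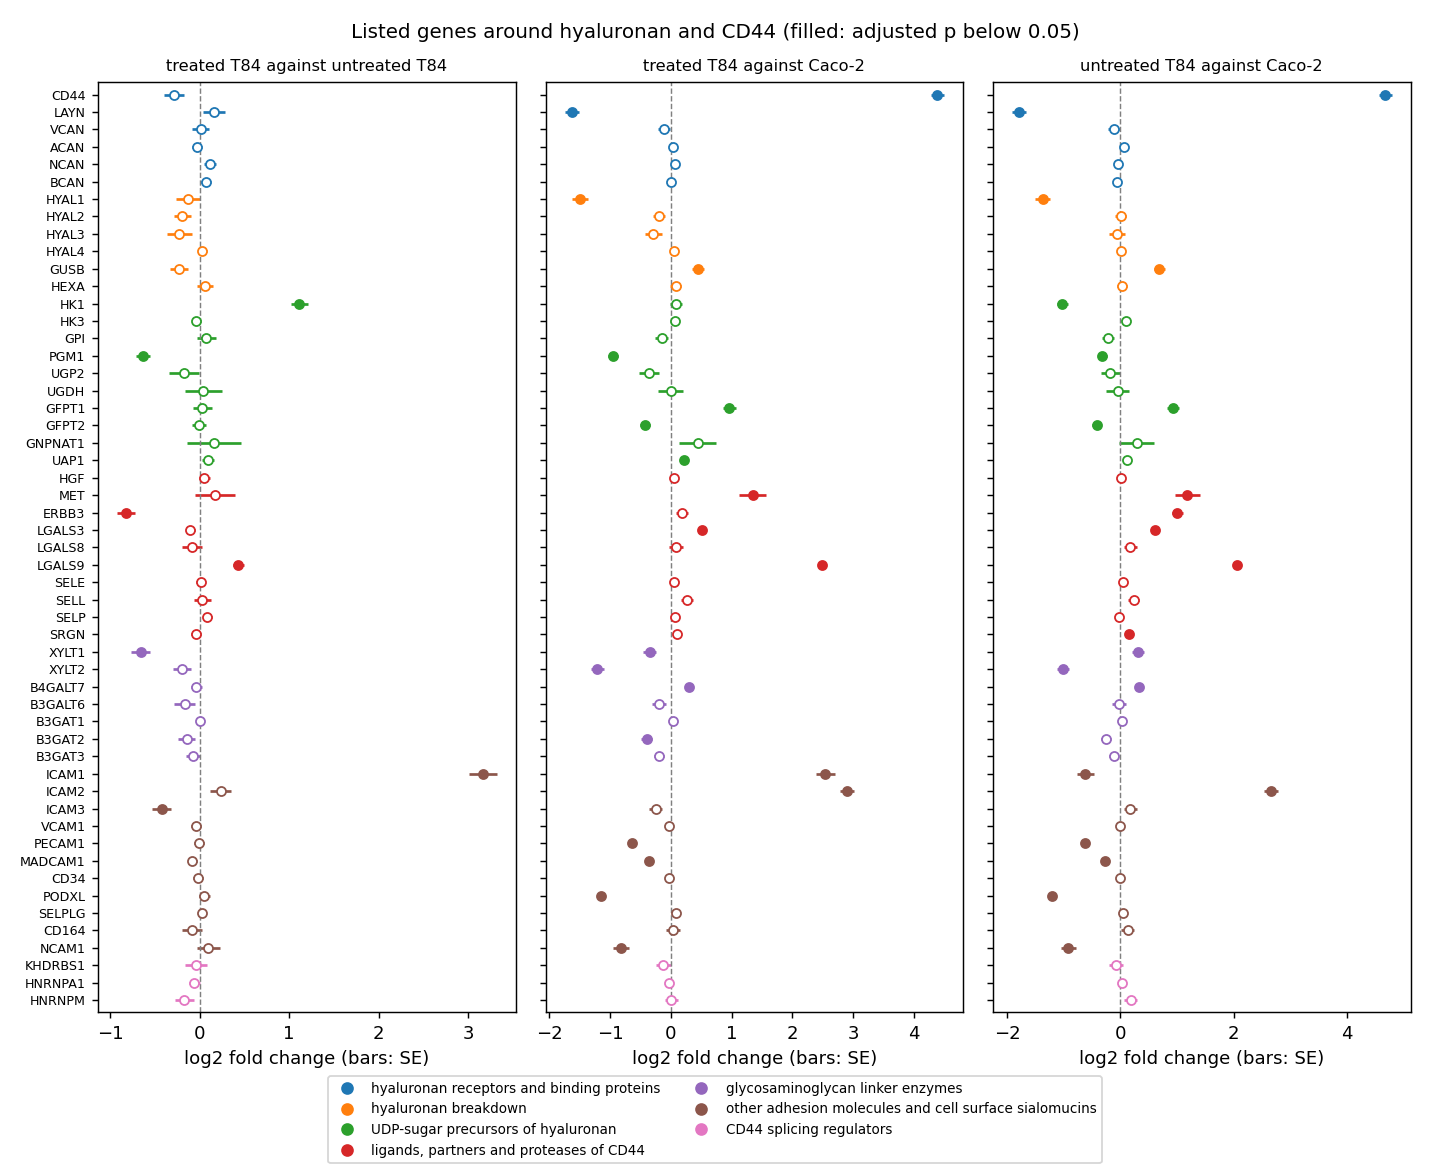
Log2 fold change (horizontal axis, bars show the standard error) of the 53 measured genes of the 7 lists in the 3 comparisons, coloured by list; filled points passed an adjusted p of 0.05. The axes differ between panels. CD44 is the highest point in both comparisons with Caco-2, and ICAM1, at 3.17, the highest between treated and untreated T84.

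ICAM1, an adhesion molecule for leukocytes, gave the contrast to CD44 among 11 measured adhesion molecules and cell surface sialomucins. It stood at 10.84 ± 0.11 in treated and 7.67 ± 0.17 log2 units in untreated T84 (8.97-fold, limma adjusted p = 3.98e-06, n = 3 per group). ICAM3 was called lower at -0.42 ± 0.11 (limma adjusted p = 0.0479). That call was lost with any 1 of 7 arrays left out, namely treated T84 replicate 1, 2 or 3, untreated T84 replicate 1 or 3, or Caco-2 replicate 2 or 3 (limma adjusted p from 0.051 to 0.164). Against Caco-2, ICAM2 was higher by 2.90 ± 0.12 in treated and 2.66 ± 0.12 in untreated T84. PODXL, a sialomucin, was lower at -1.15 ± 0.06 and -1.20 ± 0.06, PECAM1 at -0.63 ± 0.06 and -0.62 ± 0.06, and NCAM1 at -0.82 ± 0.13 and -0.92 ± 0.13. The other NCAM1 probe set did not pass (0.11 ± 0.05 and 0.07 ± 0.05). Against Caco-2, ICAM1 was called higher for treated T84 (2.54 ± 0.15) but lower for untreated T84 (-0.62 ± 0.15). The latter call ended when arrays were centred on ribosomal protein genes (-0.33, limma adjusted p = 0.0568), where the median of all probe sets was 0.31. Counts higher and lower were 1 and 1 of 11 between the T84 groups, 2 and 4 in treated T84 against Caco-2, and 1 and 5 in untreated T84 against Caco-2. The shares of all probe sets were 4.37% and 5.8%, 19.4% and 26.2%, and 19.5% and 24.2% in that order.

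Of 7 enzymes that build the linker by which sulfated chains are attached to proteins such as CD44, XYLT1 fell after interferon gamma. It was the only one of the 7 called there, beside 4.37% of all probe sets called higher and 5.8% lower. XYLT1 and XYLT2 add the first sugar of the linker. XYLT1 stood at 7.19 ± 0.11 in treated and 7.85 ± 0.15 in untreated T84, and its log2 fold changes were -0.66 ± 0.11 and, in its other probe set, -0.63 ± 0.13 (limma adjusted p = 0.00591 and 0.0187, n = 3 per group). XYLT2 was lower than in Caco-2 at -1.21 ± 0.10 in treated and -1.02 ± 0.10 in untreated T84. Counts higher and lower were 1 and 3 of 7 in treated T84 against Caco-2, beside 19.4% and 26.2% of all probe sets. They were 2 and 1 in untreated T84 against Caco-2, beside 19.5% and 24.2%. XYLT1 is among them at -0.35 ± 0.11 and 0.31 ± 0.11 (limma adjusted p = 0.0285 and 0.0461). Its other probe set passed in neither (-0.33 ± 0.13 and 0.30 ± 0.13, limma adjusted p = 0.0754 and 0.109). The XYLT1 call in treated T84 was lost without treated T84 replicate 2 or 3 or Caco-2 replicate 1 or 2. That in untreated T84 was lost without any 1 array other than untreated T84 replicate 1 and Caco-2 replicate 1. Of 10 listed regulators of CD44 splicing, KHDRBS1, HNRNPA1 and HNRNPM were measured, and none passed in any comparison (log2 fold changes from -0.17 to 0.18).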

How the data were processed

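RNA extracted with Trizol was labelled as biotinylated cRNA from 0.5 ug and hybridised to single-colour Affymetrix-type arrays, per the labels' protocols. The authors deposited log2 signals, 1 value for each probe set and array, made with RMA (background correction, normalization and summary of probes) per the submitters' processing notes. Its version, a genome build and any filter are not stated there. No further scaling was applied.

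Of 1259 probe sets, 1043 received 1 symbol from the RefSeq table (GRCh38.p14) by unversioned identifier, standing for 927 genes. All 1259 entered 1 limma 3.58.1 fit (R 4.3.3) with 3 groups and all 9 arrays, with 6 residual and 2.12 prior degrees of freedom and Benjamini-Hochberg adjustment over 1259 at 0.05. Replicates are numbered in the labels, which do not say whether they are separate cultures, so the p-values cover the spread between these 9 arrays alone, and that spread may be technical. Precision is limited by the small number of arrays. On simulated data with 200 changed probe sets, the fit for treated against untreated T84 recovered 49.2% of changes sized 0.25 log2 units, 82.3% at 0.5, 95.6% at 1 and 99.4% at 2. A gene with several probe sets was represented by the brightest. The permutation tests used scipy 1.17.1.

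The members and gene lists were chosen with earlier results of these data known. The text names all members, the called list members with a log2 fold change of at least 0.5 (up to 6 for each list and comparison), the interferon check genes, and the 5 genes most correlated with each member probe set whose group means span at least 1 log2 unit; LGALS9, ICAM3, SRGN, GFPT2, B3GAT2 and MADCAM1, the smaller changes of genes already named, list members given as not passing, and the called cell type markers were added after their values were seen. Alternatives covered the arrays fitted, a replicate block, moderation, array weights, scaling, a filter, the threshold and single arrays left out. Centring on the median of 51 ribosomal probe sets and leaving out 3 arrays together or, for the correlations, Caco-2 replicate 1 were added after the data were seen. The other 216 probe sets, which received no symbol, entered the fit but are not named. 1 listed gene is not reported here.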

Additional observations from a re-analysis of the deposited data

How the results depend on the processing

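CD44 and the unshared HAS3 probe set kept their direction and call against Caco-2 in both T84 groups under all 21 alternatives run (4.28 to 4.97 and 2.51 to 3.03 log2 units). Centring on the mean of ribosomal protein genes moved the median of all probe sets to 0.14, 0.46 and 0.31 in treated against untreated T84, treated T84 against Caco-2 and untreated T84 against Caco-2. It gave HAS1 values of 0.19, 0.51 and 0.32 that passed, and turned the unshared HAS3 probe set (0.0584) and the shared one (0.15) to higher in treated than in untreated T84, neither past the test. It gave 0.83 and 0.69 for the shared HAS3 probe set against Caco-2, both past the test, and ended the HAS2 call in treated T84 (-0.35). It moved all probe sets alike within a comparison, and of the listed genes that had been called it turned GFPT2 (0.0218), XYLT1 (0.0949), B3GAT2 (0.0442) and MADCAM1 (0.0904) in treated T84 against Caco-2 and MADCAM1 (0.0187) in untreated T84 against Caco-2, and raised the counts higher in the 7 lists to 14, 37 and 32, from 3, 10 and 11. The list genes lower than in Caco-2 numbered 7 and 7 under it, and 17 in treated T84 with array weights, against 11 and 11. Over all probe sets it gave 289 higher and 52 lower, 911 and 180, and 837 and 195, against 55 and 73, 244 and 330, and 245 and 305. Centring on the ribosomal median, added after seeing the data, gave HAS1 values of 0.33 and 0.22 and shared HAS3 values of 0.65 and 0.58 against Caco-2, all past the test. It gave 0.0617 for the shared HAS3 probe set within T84, HAS2 at -0.54 without a call in treated T84, and 30 and 25 list genes higher than in Caco-2, with 7 lower in treated T84. Over all probe sets it gave 56 higher and 47 lower, 760 and 223, and 601 and 223.

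HAS2 in treated T84 against Caco-2, at -0.80, also lost its call with only 6 arrays, with the replicate block (adjusted p = 0.0546), without moderation and at a threshold of 0.01, and ranged from -1.18 to -0.60 with single arrays left out. In untreated T84 against Caco-2, at -1.09, it missed the threshold of 0.01 alone. Within T84 it passed at 0.29 with 6 arrays and at 0.32 with 3 arrays left out together, and ranged from 0.25 to 0.35 with single arrays left out. Array weights brought past the test CD44 within T84 (-0.34) and the shared HAS3 probe set against Caco-2 (0.60 and 0.62). Leaving out 3 arrays together did so for the shared HAS3 probe set (0.63 and 0.51). With single arrays left out the shared probe set ranged from 0.25 to 0.67 in treated and from 0.23 to 0.67 in untreated T84 against Caco-2. Within T84 it ranged from -0.15 to 0.16, and was 0.0070 after quantile normalization and 0.12 with 3 arrays left out together. The difference between the HAS3 probe sets within T84 ranged from -0.24 to 0.0402. The cause of these changes was not tested.

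Same-numbered arrays correlated between -0.64 and 0.56 in their deviations, and 4 of 18 best matches over all groups had the same number. Between treated and untreated T84 the same-numbered r was 0.39, -0.02 and 0.56 for replicates 1, 2 and 3. With 3 arrays per group, these values cannot settle whether the numbers pair the arrays. With the replicate block HAS2 was the sole member whose call changed, in treated T84 against Caco-2. Between treated and untreated T84 that setting called 50 probe sets higher and 59 lower. At a threshold of 0.01, 43 higher and 36 lower were called there. Array weights gave 87 and 144, and 70 and 108 were called without Caco-2 replicate 1. No moderation gave 48 lower, and single other arrays left out 40 to 69 lower. Array weights gave 368 higher in treated T84 against Caco-2.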
